A study of Mus musculus with 1298 samples.

Results

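The 10 imprinted growth genes H19, Dlk1, Mest, Peg3, Plagl1, Grb10, Cdkn1c, Ndn, Nnat and Meg3 were followed by name through the descendants of cells that expressed Pax7 in the mouse embryo. They were taken by symbol, whatever their values, out of 26723 genes named over the 3 count tables of the series. All 10 had a row in the 10x table, and 8 of them were followed in the Smart-seq2 and bulk tables as well. H19 and Meg3 were analysed in the 10x table only.

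An imprinted gene is expressed mainly from the copy inherited from the mother or mainly from the copy inherited from the father, and many such genes set how fast embryonic tissues grow. Dlk1, Mest, Peg3, Plagl1, Ndn and Nnat are known as paternally expressed genes. H19, Meg3, Cdkn1c and, outside the brain, Grb10 are known as maternally expressed genes. In somite derivatives these genes are known for their part in muscle growth, in the balance between progenitors and fat cells and in cell cycle exit. The count tables do not separate the parental copies, so all values below are summed over both.

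All cells came from embryos that carried Pax7CreER, which makes Cre only in cells expressing Pax7, and R26R-stop-EYFP, which switches on the yellow reporter once Cre has acted. Every pregnant mouse received 1 dose of tamoxifen at 75 µg per g of body weight on embryonic day 9.5, and YFP+ cells were sorted from pooled embryos at E12.5, E14.5 or E16.5, so no untreated or Cre-negative group was compared here. Single cells were counted in 1 10x library a day (unique molecular identifiers, UMIs) and in Smart-seq2 plates, where full-length reads were used. Of 18 bulk Smart-seq2 libraries only the 2 libraries of freshly sorted E16.5 cells without surface Pdgfra and with surface Cd36 could be tied to their labels by column name. Per the study's methods such bulk libraries are technical duplicates of 1 sorted sample, so their difference is no biological error, and the culture libraries were not analysed here.

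The deposited tables held 3916 cells, of which 3852 were kept. The median 10x cell held between 1608 and 5930 UMIs depending on the day, and the median Smart-seq2 cell between 393416 and 829590.1 estimated counts. The 10x libraries shared 3 cell barcodes with each other. Cells were clustered without the imprinted genes, and clusters were named from marker lists as EM-like (early muscle, 18.1% of the cells kept), LM-like (late, differentiating muscle, 6.15%), MP-like (mesenchymal progenitor, 30.1%), DF-like (dermal fibroblast, 15.6%), BA-like (brown adipocyte, 4.52%), N-like (neuron, 16.7%), NP-like (neural progenitor, 7.32%) and PE-like (pericyte, 1.51%). The MP-like cells of E12.5 were nearly all in 1 cluster, which scored 0.243 for its own markers and 0.188 for the DF list. In that class at E12.5, 8 of 9 MP markers were higher on average than in any other class, and Foxc2 was not. The same markers gave the class its name, so this is a description and not an independent check.

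Counts of each class were summed within each day and platform, and 1 day on 1 platform is called a pool below. Levels are in CPM, that is counts scaled to the total of such a sum. Differences between classes were tested over pools by edgeR's quasi-likelihood test with the pool as a block, and adjusted p is the Benjamini-Hochberg value over all genes tested. Nothing in the labels gives separate litters for the pools, so p-values measure only the spread between these pools. H19 and Meg3 were tested over the 10x pools alone.

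The members lie at several imprinted loci. Dlk1 lies at chr12:109452823-109463336 and Meg3, a long non-coding RNA, at chr12:109541001-109571726, on the same strand of GRCm38. H19, a long non-coding RNA, lies at chr7:142575529-142578143 and Cdkn1c at chr7:143458339-143461050, while Ndn (chr7:62346569-62350262) and Peg3 (chr7:6703892-6730431) lie elsewhere on that chromosome. Mest lies at chr6:30723547-30748465, where exons of Copg2 on the opposite strand overlap it, so that unstranded Smart-seq2 and bulk reads of the pair could not be told apart. Plagl1 lies at chr10:13060504-13131694, Grb10 at chr11:11930508-12038683 and Nnat at chr2:157560078-157562522.

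H19, Mest and Meg3 are also hosts of microRNAs, small RNAs that bind target transcripts through bases 2 to 8, the seed. The poly(A)-based libraries did not measure mature microRNAs, and the sequences are shown only to identify what the 3 host transcripts carry. The mature sequences (RefSeq, GRCm38.p6) are written 5′ to 3′ with the seed in capitals. The miR-675 pair lies in an exon of H19 (chr7:142577078-142577133) and the miR-335 pair in an intron of Mest (chr6:30741314-30741375). Meg3 carries miR-1906 (chr12:109544588-109544609) and the miR-770 pair (chr12:109563710-109563765) in exons. All 7 seeds differ.
miR-675-5p: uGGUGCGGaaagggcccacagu
miR-675-3p: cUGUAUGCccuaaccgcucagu
miR-335-5p: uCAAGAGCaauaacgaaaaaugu
miR-335-3p: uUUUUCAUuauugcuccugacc
miR-1906: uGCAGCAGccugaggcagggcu
miR-770-5p: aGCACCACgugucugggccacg
miR-770-3p: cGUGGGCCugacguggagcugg

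The first comparison asked how the mesenchymal progenitors differ from the early muscle cells that share their Pax7+ origin. Dlk1, Ndn, Mest and the non-coding RNA Meg3 were higher in MP-like cells, and the cell cycle inhibitor Cdkn1c and the neuronal proteolipid Nnat were lower. Of the 8 members tested on both platforms, 3 were higher and 2 lower, where 25.4% of all 14051 genes were called in either direction and 14.6% were called higher. The members' median log2 difference was 0.28 and that of all genes 0.154.

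Dlk1 encodes a transmembrane protein related to Notch ligands that restrains fat cell differentiation. Its level in MP-like cells was 1821, 5671 and 9784 CPM on 10x over the 3 days from E12.5 to E16.5, and 186.3, 1653 and 1056 CPM on Smart-seq2. In EM-like cells the same days gave 241.1, 1247 and 2306 CPM on 10x and 41.6, 452.4 and 287.2 CPM on Smart-seq2. MP-like cells were higher within each of the 6 pools, although the EM-like level of E16.5 exceeded the MP-like level of E12.5 on both platforms. The log2 difference was 2.13 (SE 0.13, adjusted p = 2.07e-05).

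Meg3, the maternally expressed neighbour of Dlk1, stood at 4286, 7455 and 7300.0 CPM in MP-like cells and at 1216, 1546 and 2371 CPM in EM-like cells on the 3 days. The groups did not overlap, and the log2 difference was 1.83 (SE 0.11, adjusted p = 3.62e-06). The 2 transcripts of this locus, known to come from opposite parental copies, differed in the same direction between these classes. H19 stood at 1693, 2632 and 6189.5 CPM in MP-like and 1851, 1509 and 2229 CPM in EM-like cells. The 2 groups overlapped, with H19 below the EM-like value at E12.5 and above it later, and the log2 difference of 0.65 (SE 0.23, adjusted p = 0.0522) missed the threshold. It passed under 6 of 8 other settings of the same pools and without the 10x pool of E12.5 (log2 0.97, SE 0.13, adjusted p = 1.05e-11), and missed it without the pool of either later day. Over the 10x pools alone, 6 of 10 members were called higher and 2 lower, against 32.4% of all genes in either direction, and Peg3 and Grb10 were among the 6.

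Cdkn1c encodes p57, an inhibitor of cyclin-dependent kinases. It stood at 1193, 3436 and 2458 CPM in MP-like cells on 10x against 2327, 6185 and 3924 CPM in EM-like cells. On Smart-seq2 the values were 353.5, 840.5 and 676 CPM against 752, 2126 and 1259 CPM. It was lower in MP-like cells in all 6 pools, and the log2 difference was -1.01 (SE 0.12, adjusted p = 3.64e-04). All 12 genes of a proliferation list were lower in MP-like cells too, with a median log2 difference of -1.50.

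Ndn encodes necdin, a MAGE family protein that restrains growth of neurons and preadipocytes. Its 10x levels were 135.5, 227.6 and 449.9 CPM in MP-like cells and 58.1, 59.7 and 76.4 CPM in EM-like cells, without overlap. The Smart-seq2 levels were 280.8, 633 and 679 CPM against 173.4, 238.5 and 247.1 CPM, and the log2 difference was 1.47 (SE 0.22, adjusted p = 0.00142). Nnat encodes neuronatin, a small membrane protein of neurons and endocrine cells. It stood at 561.2, 88.2 and 44.2 CPM in MP-like and 850.2, 343.7 and 123.7 CPM in EM-like cells on 10x, and was lower in MP-like cells in all 6 pools (log2 -1.35, SE 0.20, adjusted p = 0.00127).

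Peg3, a zinc finger transcription factor, and Grb10, an adaptor that inhibits insulin and IGF receptor signalling, did not pass the test over both platforms. The log2 difference was 0.27 (SE 0.16, adjusted p = 0.248) for Peg3 and 0.28 (SE 0.14, adjusted p = 0.167) for Grb10. Per pool, Peg3 ranged from -0.49 to 0.76 and Grb10 from -0.18 to 0.79.

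**Figure D1:**
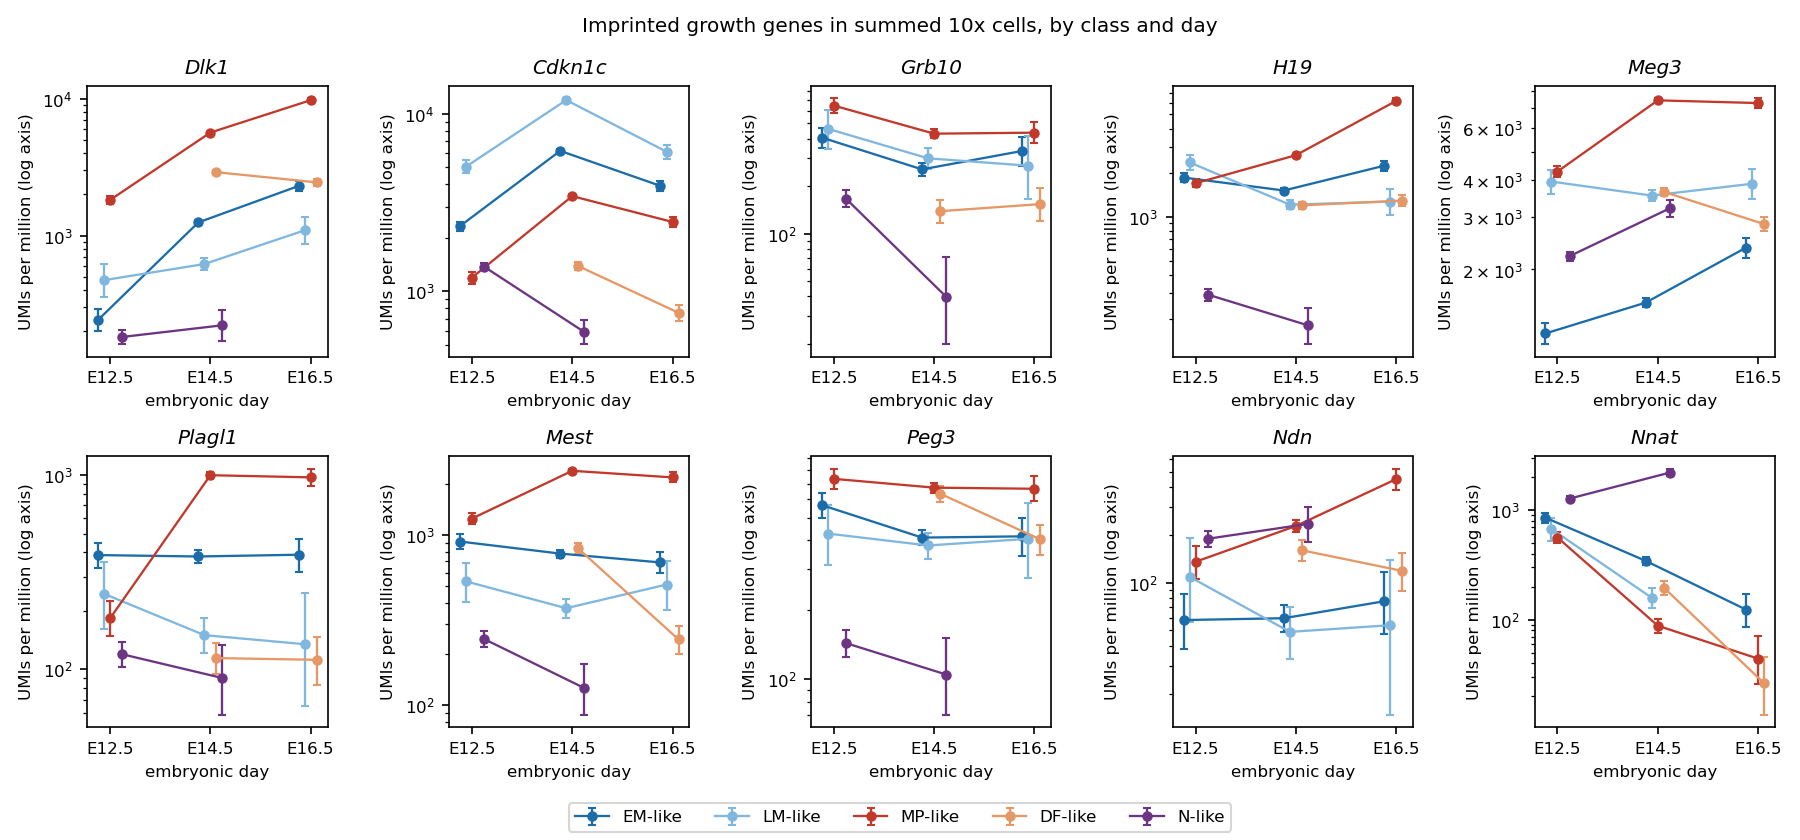
CPM of the 10 members in summed 10x cells on a log axis, by embryonic day, with 1 line a class and exact Poisson 95% intervals that cover counting error only. Dlk1 rose to 9784 CPM in MP-like cells by E16.5, Cdkn1c was highest in LM-like cells on each day and Nnat in N-like cells at E12.5 and E14.5, and a class with 0 counts on a day has no point.

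Plagl1 turned with the day on both platforms, and Mest on Smart-seq2 only. Plagl1 encodes a zinc finger transcription factor that restrains proliferation, and the study itself lists it among the markers it chose for early muscle and for late progenitors on these samples. At E12.5 it was at 183.3 CPM in MP-like and 387.4 CPM in EM-like cells on 10x, and at 123.4 and 1133 CPM on Smart-seq2. At E14.5 the MP-like level had passed the EM-like one, with 998 against 381.04 CPM on 10x and 3018 against 1641 CPM on Smart-seq2. At E16.5 the values were 973 against 389.1 CPM and 2398 against 1104 CPM. Both platforms gave the same turn, and the difference over all days, 0.20 (SE 0.57, adjusted p = 0.837), did not pass.

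The turn of Plagl1 was tested as a class-by-day interaction over the 12 sums of the 2 classes, a test that leaves few residual degrees of freedom and borrows the spread across genes. The log2 difference between MP-like and EM-like cells was 3.69 (SE 0.32, adjusted p = 1.79e-27) higher at E16.5 than at E12.5, where 11.8% of all genes were called in that interaction and 6.93% in the same direction. Per pool the log2 ratio of Plagl1 went from -1.05 at E12.5 to 1.36 at E16.5 on 10x, and from -3.19 to 1.12 on Smart-seq2. The platforms thus differed in the size of the turn, and the SE, borrowed across genes, does not show that gap. Mest, which encodes a protein of the hydrolase fold and marks mesoderm, went from 1250.3 to 2385 and 2182 CPM in MP-like cells on 10x and from 2712 to 6424 and 7995 CPM on Smart-seq2. EM-like cells gave 917, 779 and 691 CPM on 10x and 4434, 2868 and 3535 CPM on Smart-seq2. At E12.5 the platforms differed in direction, and from E14.5 MP-like cells were higher on both. The interaction was 1.74 (SE 0.29, adjusted p = 7.99e-08) for Mest and 1.14 (SE 0.37, adjusted p = 0.0206) for Ndn, and the other 5 members did not pass it. Over all days the difference of Mest was 0.87 (SE 0.28, adjusted p = 0.0447), and DESeq2 gave it an adjusted p of 0.257. That call was lost without any 1 of the 5 pools other than Smart-seq2 E12.5 (adjusted p between 0.0606 and 0.161). Without the Smart-seq2 pool of E12.5 the interaction of Mest was 1.17 (adjusted p = 0.120), and that of Ndn was lost without the 10x pool of E16.5 or either of the Smart-seq2 pools of E12.5 and E16.5 (adjusted p between 0.0762 and 0.660).

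**Figure D2:**
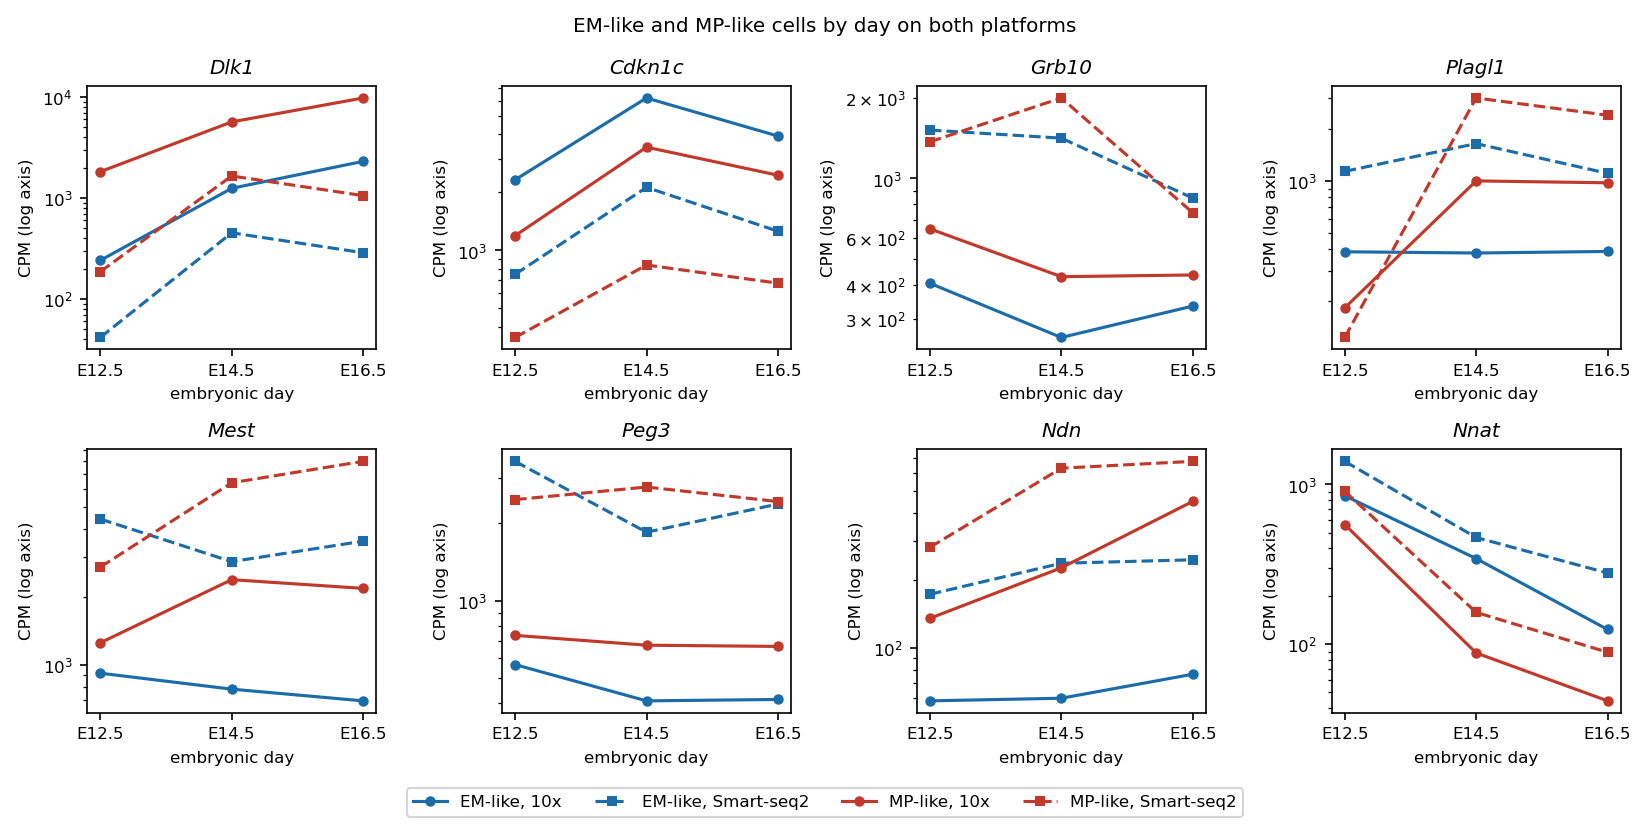
CPM on a log axis of the 8 members in both single-cell tables, in EM-like and MP-like cells by embryonic day, with solid lines for 10x and dashed lines for Smart-seq2 and 1 point a pool. The Plagl1 lines of the 2 classes cross between E12.5 and E14.5 on both platforms, while the Dlk1 line of MP-like cells stays above that of EM-like cells within each platform.

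Within each class the change over time was tested between E12.5 and E16.5, with the platform as a block. Each day had 1 pool on each platform, so the error is the disagreement of the 2 platforms, borrowed largely across genes. A small SE or p-value therefore does not show that the 2 platforms were close on that gene. The day and its library preparation cannot be told apart. In MP-like cells Dlk1, Plagl1, Mest, Ndn and Cdkn1c rose and Nnat fell, which is 6 of 8 members against 13.8% of all genes (9.58% higher). In EM-like cells Dlk1 and Cdkn1c rose and Nnat fell, 3 of 8 against 10.1% (5.36% higher). The members' median log2 change was 1.61 in MP-like and 0.13 in EM-like cells, where the medians of all genes were 0.0182 and -0.00250.

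Dlk1 rose by a log2 change of 2.98 (SE 0.42, adjusted p = 8.35e-07) in MP-like and 3.37 (SE 0.37, adjusted p = 5.30e-17) in EM-like cells. The log2 ratio of CPM of Plagl1 between these days in MP-like cells was 2.41 on 10x and 4.26 on Smart-seq2. In the fit Plagl1 rose by 3.80 (SE 0.50, adjusted p = 1.61e-07) in MP-like cells and stood at 0.30 (SE 0.35, adjusted p = 0.693) in EM-like cells. The interaction above gives that contrast its test. Mest rose by 1.72 (SE 0.40, adjusted p = 0.00169) in MP-like cells and was at -0.046 (SE 0.32, adjusted p = 0.962) in EM-like cells. Without either pool of E12.5 the calls on Mest, Ndn and Cdkn1c in MP-like cells were lost. The log2 changes were then 1.94, 1.97 and 1.37 without the 10x pool, and 1.31, 1.90 and 1.48 without the Smart-seq2 pool.

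Ndn rose by 2.02 (SE 0.44, adjusted p = 8.22e-04) in MP-like cells and did not pass in EM-like cells (log2 0.78, SE 0.42, adjusted p = 0.265). Cdkn1c rose by 1.51 (SE 0.40, adjusted p = 0.00698) in MP-like and 1.07 (SE 0.31, adjusted p = 0.0110) in EM-like cells, with its highest level at E14.5 in both classes and on both platforms. The rise in EM-like cells was lost when only the library size was used for scaling (log2 change 0.74, adjusted p = 0.0998), and without either pool of E12.5 or the Smart-seq2 pool of E16.5 (log2 changes 1.01, 1.03 and 1.00). Nnat changed by -2.95 (SE 0.47, adjusted p = 7.89e-06) in MP-like and -2.18 (SE 0.37, adjusted p = 3.90e-07) in EM-like cells, and its fall was seen at each step on both platforms.

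Grb10 and Peg3 passed in neither class. With 1 10x library a day, H19 and Meg3 have values only. H19 was at 1693, 2632 and 6189.5 CPM in MP-like cells, with exact Poisson 95% intervals of 1584 to 1808 at E12.5 and 5943 to 6443 at E16.5 that do not overlap, and its partner Igf2, a growth factor transcribed from the other parental copy of the same locus, rose in MP-like cells over both platforms (log2 change 2.69, SE 0.48, adjusted p = 5.43e-05). Igf2 was at 107.8, 105.4 and 779.9 CPM on 10x and 1132, 2315 and 2688 CPM on Smart-seq2.

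The clusters that made up a class differed by day and by platform, and their part in each change over time was not tested. MP-like cells were mostly cluster 1 at E12.5 and clusters 4 and 11 at E14.5. At E16.5 cluster 7 held 92.4% of them on 10x but 28.9% on Smart-seq2, where clusters 4 and 11 held 43.3% and 27.8%, and within E14.5 Plagl1 stood at 889 CPM in cluster 4 and 1237 CPM in cluster 11. EM-like cells of E12.5 were mostly cluster 3 (98.1% on 10x and 88% on Smart-seq2) and those of E14.5 mostly cluster 2 (99.1% and 94.5%). Those of E16.5 were mostly cluster 3 on 10x (90.9%) and all in cluster 2 on Smart-seq2 (59 cells). The summed level of the 6 DF markers in MP-like cells was 786 CPM at E12.5 and 236.7 CPM at E16.5 on 10x, and 1040.2 and 256.8 CPM on Smart-seq2. The 8 BA markers moved the other way, from 3.82 to 374.5 CPM and from 4.49 to 131.4 CPM. Their part in the members' changes was not tested. Library-size scaling moved the median log2 change of all genes to -0.53 in MP-like and -0.33 in EM-like cells, and turned the share of called genes that were higher from 69.2% to 36.1% and from 52.9% to 32.9%. The 6 called members of MP-like cells kept their direction and call under it.

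The next comparison set dermal fibroblasts against the mesenchymal progenitors of the same days. Most members were lower in DF-like cells, and none was called higher. Plagl1, Mest, Grb10, Cdkn1c, Dlk1 and Ndn were lower over 4 pools, 6 of 8 against 5.55% of all genes called lower and 11.2% in either direction. H19 and Meg3 were lower over the 2 10x pools, where 7 of 10 members were called lower and 6.23% of all genes were called in either direction. The members' median log2 difference was -1.50, beside -0.00438 for all genes.

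Plagl1 showed the largest difference among the members. In DF-like cells it stood at 114.4 and 112.1 CPM on 10x and 451.2 and 242.9 CPM on Smart-seq2 at E14.5 and E16.5, where MP-like cells held 998, 973, 3018 and 2398 CPM. The 2 groups did not overlap on either platform, and the log2 difference was -3.01 (SE 0.13, adjusted p = 4.13e-06). Grb10 was at 138.7 and 153.8 CPM against 430.5 and 436.9 CPM on 10x (log2 -1.59, SE 0.11, adjusted p = 4.87e-05), and its interaction with the day did not pass (log2 0.16, SE 0.19, adjusted p = 0.821).

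Mest was at 834 and 243.9 CPM in DF-like cells on 10x and 1710.5 and 948 CPM on Smart-seq2, all below every MP-like pool of the same platform and days. Its log2 difference was -2.33 (SE 0.25, adjusted p = 4.81e-04). Dlk1 was at 2908 and 2449.9 CPM and 793 and 240.9 CPM (log2 -1.47, SE 0.19, adjusted p = 0.00115). Both gaps widened between the days. The interaction, E16.5 minus E14.5, was -1.34 (SE 0.13, adjusted p = 1.89e-22) for Mest and -0.99 (SE 0.11, adjusted p = 4.41e-15) for Dlk1, and Peg3, Ndn and Nnat passed it as well at -0.63, -0.86 and -1.26. That is 5 of 8 members, all moving towards lower levels in DF-like cells, against 4.66% of all genes (2.68% in that direction). Those of Mest and Dlk1 held without each pool in turn, while those of Peg3, Ndn and Nnat were each lost without some of 3 pools, at -0.71 to -0.49, -1.10 to -0.70 and -2.21 to -0.56 over the pools left out.

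Cdkn1c differed by -1.54 (SE 0.11, adjusted p = 4.65e-05) and Ndn by -1.09 (SE 0.19, adjusted p = 0.00605). H19 was at 1195 and 1288 CPM in DF-like cells against 2632 and 6189.5 CPM in MP-like cells (log2 -1.67, SE 0.27, adjusted p = 0.0118), and Meg3 at 3659 and 2848 against 7455 and 7300.0 CPM (log2 -1.17, SE 0.20, adjusted p = 0.0147). Peg3 (log2 -0.39, SE 0.14, adjusted p = 0.110) and Nnat (log2 -0.24, SE 0.33, adjusted p = 0.721) did not pass. Nnat was higher in DF-like cells in the 10x pool of E14.5 (log2 ratio 1.14) and lower in the other pools. Igf2 was lower as well (-2.04, SE 0.27, adjusted p = 0.00132). In the same comparison 8 of 12 proliferation genes were called higher in DF-like cells and none was called lower, with a list median of 0.95. The summed level of the 4 cartilage markers was 315.4 and 111.8 CPM in MP-like cells and 12.2 and 17.6 CPM in DF-like cells on 10x, and its part in the members' differences was not tested.

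**Figure D3:**
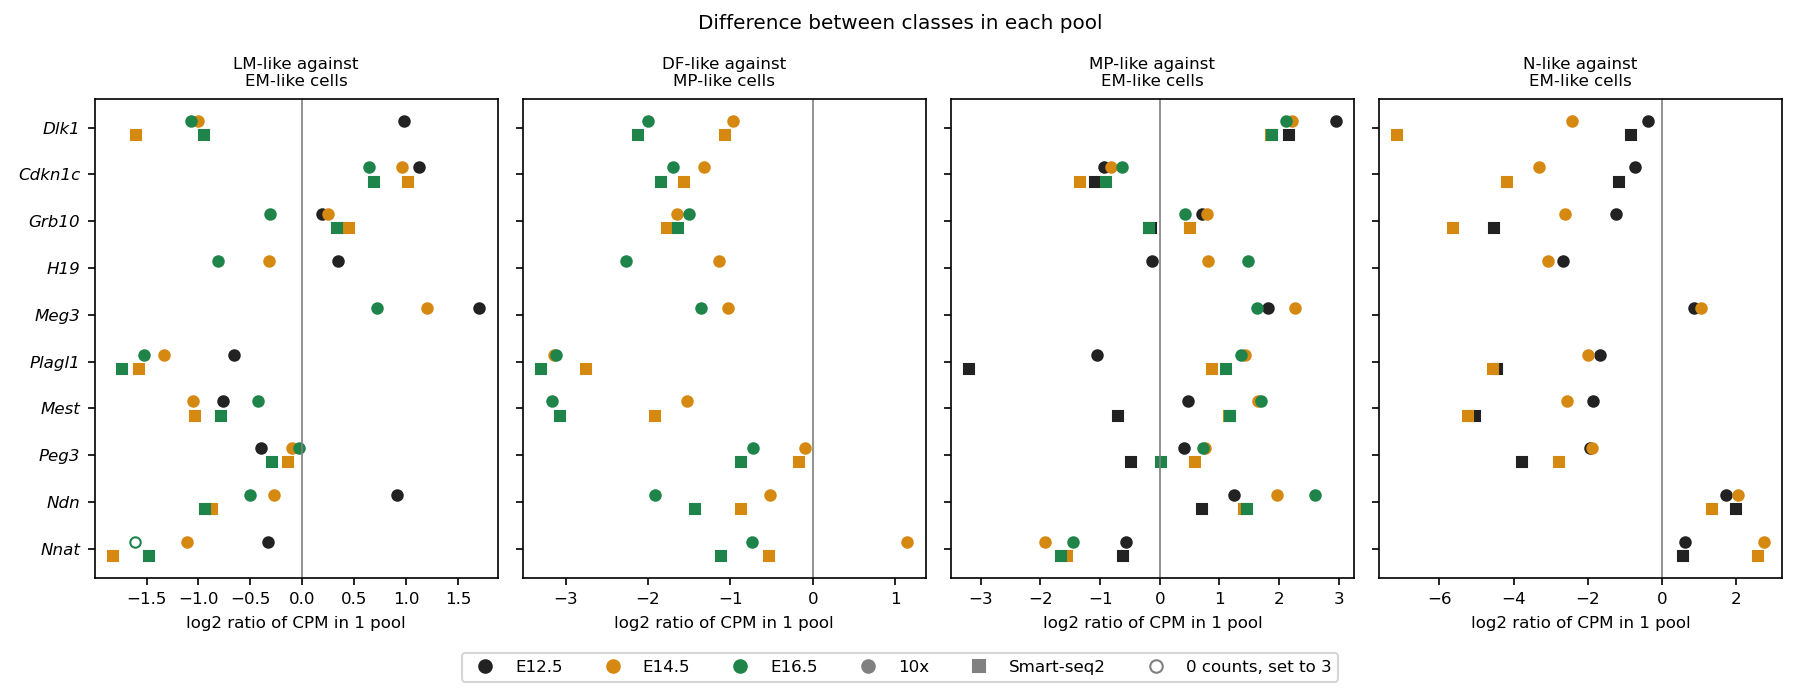
Log2 ratio of CPM between 2 classes within each pool for the 10 members, with circles for 10x, squares for Smart-seq2 and colours for the day. In DF-like against MP-like cells the Plagl1 points lie between -3.30 and -2.75, and in MP-like against EM-like cells the E12.5 points of Plagl1 lie below 0 while those of later days lie above it.

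Differentiating muscle cells were compared with the early muscle cells of the same pools. Cdkn1c and Meg3 were higher in LM-like cells, and Plagl1, Nnat, Mest and Dlk1 were lower. That is 1 of 8 members higher and 4 lower over 5 pools, beside 23.9% of all genes called and 12.6% called lower. Over the 3 10x pools alone 20.5% of all genes were called. Library-size scaling moved the median of all genes to -0.15 and the share of called genes that were higher from 47.2% to 35.6%, and the 5 calls on members kept their direction and their side of the threshold. The LM list led as the class was named, and all 12 proliferation genes were lower in LM-like cells, with a list median of -3.47.

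Cdkn1c reached its highest levels of all classes here. It stood at 5033, 11962 and 6122 CPM in LM-like cells on 10x over the 3 days, and at 4313 and 2033 CPM on Smart-seq2 at the later days. The ratio to EM-like cells was positive in all 5 pools (0.64 to 1.12), and the log2 difference was 0.99 (SE 0.17, adjusted p = 6.15e-05). Meg3 was at 3963, 3554 and 3897 CPM in LM-like cells, above the EM-like level on each day (log2 1.26, SE 0.15, adjusted p = 4.78e-09).

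Plagl1 was at 244.8, 150.1 and 134.8 CPM in LM-like cells on 10x and 552.5 and 330.96 CPM on Smart-seq2, below EM-like cells in all 5 pools (log2 -1.25, SE 0.19, adjusted p = 1.54e-05). Nnat (log2 -1.13, SE 0.23, adjusted p = 7.64e-04) and Mest (log2 -0.71, SE 0.16, adjusted p = 0.00164) were lower in all 5 pools too, and Nnat had 0 counts in the LM-like 10x pool of E16.5. Dlk1 changed sides between the days on 10x. In LM-like cells it stood at 471.5, 618 and 1092 CPM on 10x, above the EM-like level at E12.5 and below it later, and the Smart-seq2 pools of E14.5 and E16.5 were at 149.03 and 148.6 CPM. Only 14 LM-like cells came from the plates of E12.5, too few for the fit, which asked for 20, and in their sum Dlk1 stood at 5.52 CPM against 41.6 CPM in EM-like cells, below it and not above it as on 10x. Over all days the difference was -0.72 (SE 0.23, adjusted p = 0.0241), which DESeq2 did not call (adjusted p = 0.190) and which lost its call without any of 3 single pools (10x E14.5, 10x E16.5 or Smart-seq2 E14.5, adjusted p between 0.0739 and 0.155). The interaction, E16.5 minus E12.5, was -1.98 (SE 0.47, adjusted p = 0.0132), where 0.457% of all genes were called, 0.377% in that direction. It rests on the 35 LM-like cells of the 10x library of E12.5, and was not called with Smart-seq2 E14.5 left out (-2.01, adjusted p = 0.771).

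Peg3 (log2 -0.061, SE 0.17, adjusted p = 0.837), Grb10 (log2 0.37, SE 0.19, adjusted p = 0.165), Ndn (log2 -0.33, SE 0.24, adjusted p = 0.358) and, on 10x, H19 (log2 -0.17, SE 0.16, adjusted p = 0.496) did not pass. H19 stood at 2349, 1208 and 1268 CPM in LM-like cells, above the EM-like value at E12.5 and below it on both later days.

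Neurons, which the Pax7 label also reaches from the dorsal neural tube, were compared with early muscle cells at E12.5 and E14.5. Ndn was higher in N-like cells, and Grb10, Mest, Plagl1, Peg3, Cdkn1c and H19 were lower. Over 4 pools 1 of 8 members was called higher and 5 lower, where 29.6% of all genes were called and 15.6% were called lower. Over the 2 10x pools alone 19.4% of all genes were called. Library-size scaling turned the share of called genes that were higher from 47.3% to 65.7% and moved the median of all genes to 0.30, and the 6 calls on members kept their direction and their side of the threshold.

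Ndn was at 189.1 and 234.9 CPM in N-like cells on 10x and 702 and 604 CPM on Smart-seq2, above EM-like cells in all 4 pools (log2 1.39, SE 0.22, adjusted p = 0.00644). Nnat had its highest levels of all classes here, 1269 and 2189.6 CPM on 10x and 2089 and 2812 CPM on Smart-seq2. It was above EM-like cells in all 4 pools, but the difference of 1.24 (SE 0.40, adjusted p = 0.0556) did not pass. Meg3 stood at 2218 and 3219 CPM, against 1216 and 1546 CPM in EM-like cells (log2 0.59, SE 0.38, adjusted p = 0.301).

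The lower members were lower by more on Smart-seq2 than on 10x. Mest was at 245.6 and 126.5 CPM in N-like cells on 10x, which is -1.87 and -2.55 on the log2 scale against EM-like cells, and at 136.7 and 76.2 CPM on Smart-seq2, which is -5.03 and -5.22. The fit over all 4 pools gave -4.11 (SE 0.67, adjusted p = 0.00722) for Mest, -3.99 (SE 0.79, adjusted p = 0.0128) for Grb10, -3.61 (SE 0.59, adjusted p = 0.00732) for Plagl1, -3.01 (SE 0.33, adjusted p = 0.00281) for Peg3 and -2.73 (SE 0.71, adjusted p = 0.0290) for Cdkn1c. The call on Grb10 was lost without 10x E14.5 or Smart-seq2 E12.5 (adjusted p = 0.0557 and 0.0529), and that on Cdkn1c without 10x E14.5 or Smart-seq2 E14.5 (adjusted p = 0.119 and 0.0599). The 6 EM markers summed to 64.6 and 10.8 CPM in the N-like 10x pools and to 0.0817 and 3.15 CPM in the Smart-seq2 pools, and the part of free RNA in the 10x values was not tested. H19 was at 293.4 and 180.7 CPM in N-like cells (log2 -3.22, SE 0.39, adjusted p = 0.00311). Dlk1 did not pass (log2 -2.64, SE 1.16, adjusted p = 0.128), with 23.7 CPM at E12.5 and 3.20 CPM at E14.5 on Smart-seq2.

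Brown adipocytes and pericytes were not tested, since BA-like and PE-like cells reached the minimum of 20 in 1 pool only. The BA-like cells of the 10x library of E16.5, 16.8% of its cells, held Dlk1 at 988 CPM (exact Poisson 95% interval 904 to 1079), H19 at 190.5, Meg3 at 440.6, Mest at 85.3, Cdkn1c at 115.1 and Plagl1 at 19.8 CPM. All of these lay below the MP-like cells of the same library, 25.3% of its cells, which held 9784, 6189.5, 7300.0, 2182, 2458 and 973 CPM in the same order. Nnat was the exception, at 228.3 CPM in BA-like and 44.2 CPM in MP-like cells. The Smart-seq2 sum of E16.5 held only 14 BA-like cells after the 8% limit on mitochondrial counts, which removed 51 Smart-seq2 cells of that day. There Dlk1 was at 83.6, Mest at 259.7, Plagl1 at 12.4 and Cdkn1c at 26.2 CPM, below the 1056, 7995, 2398 and 676 CPM of MP-like cells, and Nnat at 312.3 CPM was above their 89.1 CPM. With all deposited cells kept and clustered again there were 60 such cells, with 52.6, 97.9, 9.33 and 12.2 CPM of the first 4 and 255.2 CPM of Nnat. The directions of these 5 members were thus the same on both platforms, and the intervals cover counting error only. The 30 PE-like cells of that library held Dlk1 and Meg3 at 3324 CPM each, H19 at 1359 CPM, Peg3 at 55.1 CPM and no count of Nnat, which allows up to 55.1 CPM.

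The 2 bulk libraries of sorted E16.5 cells without Pdgfra and with Cd36 are technical duplicates of 1 sample (n = 1) and hold 24859712 and 32942669 counts. Their 8 brown adipocyte markers summed to 30224 and 27889 CPM and the 6 EM markers to 1.09 and 3.04 CPM. Endothelial markers (5 of 5 above 0, 95.9 to 118.9 CPM) and erythroid markers (4 of 4 above 0, 132.2 to 256.4 CPM) were present, and in bulk samples fewer cells of a type and less RNA per cell cannot be told apart. Pecam1 alone gave 79.1 and 104.8 CPM of the endothelial sum, and no other marker of that list passed 9.01 CPM. The MP list summed to 867.6 to 963.7 CPM, NP to 96.2 to 112.6, cartilage to 71.8 to 87.6 and PE to 66.2 to 76.6 CPM. To set genes side by side, levels were divided by exon length, that of all annotated exons of a gene merged (1829 bases for Nnat, 13324 for Peg3). This length can exceed that of the transcript expressed, and the order of the members depends on it. By this measure Nnat was highest among the 8 members, at 87.1 and 108.2 CPM per kb. Ndn followed at 53.04 and 48.3 and Mest at 45.5 and 45.7 CPM per kb.

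Dlk1 was at 11.97 and 19.2 CPM per kb and Cdkn1c at 7.87 and 15.5 CPM per kb in the 2 libraries, the members on which these technical duplicates differed most. Grb10 (6.26 and 7.41 CPM per kb) was lowest in both libraries, and Plagl1 (7.89 and 8.12 CPM per kb) was near it. On the same scale the MP-like Smart-seq2 cells of E16.5 held Mest at 2027, Cdkn1c at 331.8, Plagl1 at 306.7, Dlk1 at 186.7 and Nnat at 48.7 CPM per kb, and the EM-like cells held Mest at 896 and Cdkn1c at 617 CPM per kb. Mest was thus the highest of the 8 members per length in MP-like and EM-like cells, and Cdkn1c in LM-like cells (997 CPM per kb). The bulk and single-cell tables were made separately, and these levels are set side by side without a test.

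**Figure D4:**
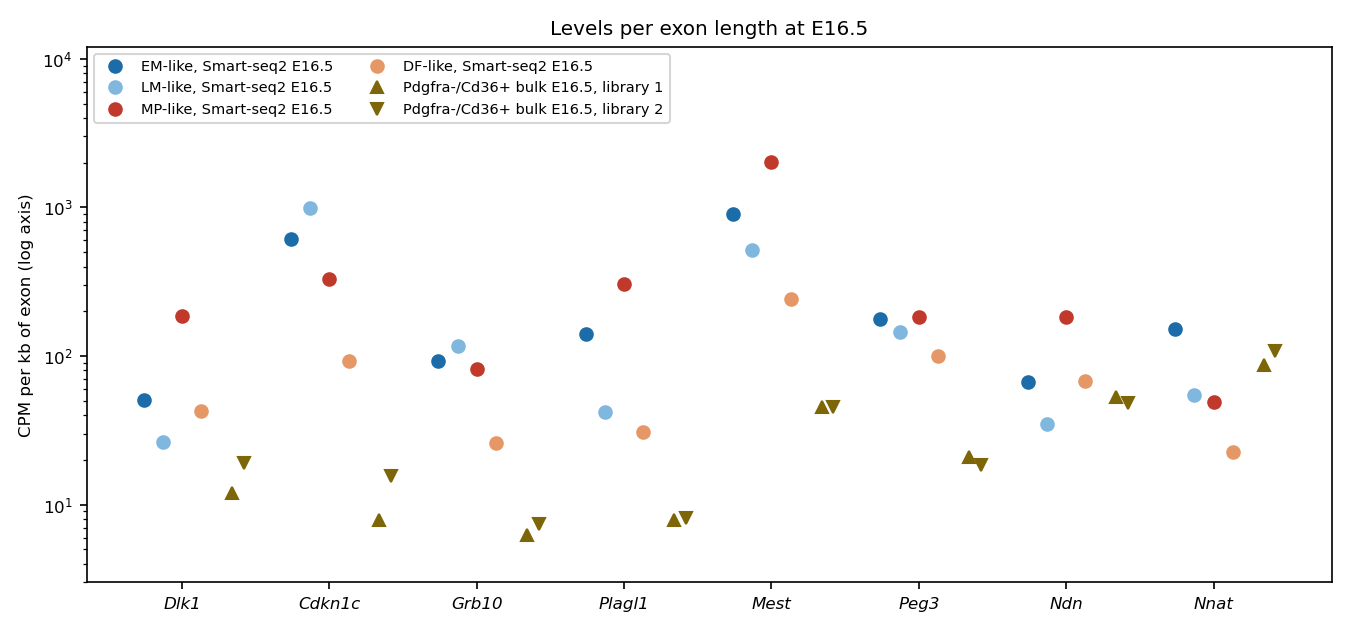
CPM per kb of exon on a log axis for 8 members at E16.5, with 1 circle for each of 4 classes of Smart-seq2 cells and triangles for the 2 bulk libraries, technical duplicates of 1 sample, of sorted Pdgfra-/Cd36+ cells. Mest was the highest member in MP-like cells (2027 CPM per kb), and the 7 members other than Nnat lay below their MP-like level in both bulk libraries.

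A list of 50 further genes known as imprinted was counted in the same fits. Whether each of them is imprinted in these cells and at these days was not tested, so their changes are not by themselves changes of imprinted expression. In DF-like against MP-like cells 3 of 39 tested genes were higher and 9 lower (11.2% of all genes were called), with a list median of -0.66 beside -0.00438 for all genes, and the members and this list lay on the same side. The lowest were Asb4 (log2 -7.83, SE 1.24, adjusted p = 0.00370) and Magel2, the neighbour of Ndn (log2 -3.31, SE 0.36, adjusted p = 5.07e-04), and the highest Rasgrf1 (log2 4.66, SE 0.69, adjusted p = 0.00262) and Inpp5f (log2 1.01, SE 0.27, adjusted p = 0.0421). Asb4 held 29 counts over the DF-like and 8471 over the MP-like sums. In MP-like cells from E12.5 to E16.5, 9 of 39 rose and 1 fell (13.8% of all genes called). The rises were led by the matrix proteoglycan Dcn (log2 5.40, SE 0.51, adjusted p = 7.16e-11) and Zim1, a neighbour of Peg3 (log2 3.02, SE 0.49, adjusted p = 1.30e-05). Zrsr1 fell (log2 -2.24, SE 0.64, adjusted p = 0.0125), and the fall was seen on Smart-seq2 only, from 515.5 to 49.9 CPM. In the UMI libraries Zrsr1 held 4 counts at E12.5 and 3 at E16.5 (7.99 and 8.18 CPM), too few to show a change.

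In MP-like against EM-like cells 8 of 39 were higher and 5 lower (25.4% of all genes called). Dio3, at the far end of the Dlk1 and Meg3 locus, was higher (log2 5.36, SE 1.69, adjusted p = 0.0399), as was Htr2a (log2 7.08, SE 1.66, adjusted p = 0.0158), and Peg12 was lower (log2 -1.84, SE 0.22, adjusted p = 4.15e-04). Dio3 and Htr2a held only 9 and 7 counts over the EM-like sums, against 1306 and 987 over the MP-like sums, nearly all from Smart-seq2. Calcr was lowest, with 4 counts over the 6 MP-like pools and 2661 over the EM-like ones. In EM-like cells it went from 0 counts at E12.5 to 2325 at E16.5. Nearly all of these EM-like counts came from Smart-seq2. On 10x Calcr held only 2 counts at E16.5 in EM-like cells, too few to show a change on that platform. In EM-like cells over time 3 of 33 rose and 1 fell (10.1% of all genes called), with Dcn (log2 2.40, SE 0.71, adjusted p = 0.0117) rising and Zrsr1 (log2 -2.56, SE 0.57, adjusted p = 2.16e-04) falling. The fall of Zrsr1 was again seen on Smart-seq2 only, from 390.9 to 40.01 CPM. On 10x it held 1 count at E12.5 and 2 at E16.5. LM-like against EM-like cells gave 7 of 30 higher and 8 lower (23.9% of all genes called), with Ddc (log2 2.76, SE 0.37, adjusted p = 3.96e-06) and Osbpl5 (log2 2.20, SE 0.28, adjusted p = 1.97e-06) highest and Inpp5f (log2 -2.10, SE 0.60, adjusted p = 0.0110) and Slc38a4 (log2 -1.80, SE 0.27, adjusted p = 1.29e-05) lowest. N-like against EM-like cells gave 5 of 37 higher and 10 lower (29.6% of all genes called). Nap1l5 (13459 counts over the N-like against 4 over the EM-like sums, adjusted p = 0.0141) and Kcnk9 (1021 against 10 counts, adjusted p = 0.0153) were higher, and Slc38a4 (8 against 30409 counts, adjusted p = 0.0183) was lower. Igf2 was lower too (adjusted p = 0.0450), by sizes that differed between the platforms. On 10x it stood at 20.5 and 7.73 CPM in N-like against 66.2 and 29.5 CPM in EM-like cells, and on Smart-seq2 at 1.185 and 1.001 CPM against 2111 and 1292 CPM.

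Smaller lists of the growth axis were counted as well. Their counts stand beside 11.2% of all genes called in DF-like against MP-like cells, 25.4%, 23.9% and 29.6% in MP-like, LM-like and N-like against EM-like cells, and 13.8% and 10.1% over time in MP-like and EM-like cells. Of 5 tested genes of a growth arrest list (Cdkn1a, Cdkn1b, Cdkn2a, Cdkn2c, Gas1 and Ccng2 were listed), 2 were higher in DF-like than in MP-like cells, 1 was higher in LM-like and 1 lower in MP-like than in EM-like cells, 2 were lower in N-like cells, 2 rose in EM-like cells over time, and in MP-like cells 1 rose and 1 fell. Of the 6 partners of H19 and Igf2 signalling (Igf2, Igf1r, Insr, Igf2bp1, Igf2bp2 and Igf2bp3), 1 was higher and 1 lower in LM-like cells, 1 was lower in DF-like, 1 in MP-like and 3 in N-like cells, 1 fell in EM-like cells over time, and in MP-like cells 1, Igf2, rose. The proliferation list had 10 of 12 genes lower in N-like cells, 4 rising in EM-like cells and 3 falling in MP-like cells over time.

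Across 30 sums (1 class in 1 pool) of at least 20 cells, with levels centred within each platform, the pairs of members most alike were Mest with Peg3 (Pearson r = 0.82), Mest with Grb10 (0.80) and Mest with Plagl1 (0.78), and Dlk1 and Nnat were the most opposed (-0.58). Sums of 1 pool share its library and depth, and the values are a description. Among 2211 genes of sufficient level, those most like each member by this measure were Agtr2 for Dlk1 (0.92), Igf2 for Mest (0.86), Igfbp3 for Peg3 (0.87), Mest for Plagl1 (0.78), Nme4 for Grb10 (0.81), Clcn5 for Cdkn1c (0.90), App for Ndn (0.80) and Fzd3 for Nnat (0.90).

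The promoters of 4 members that were lower in DF-like than in MP-like cells and rose over time in MP-like cells are shown, as the 250 bases before a RefSeq start site on the gene's strand (GRCm38.p6). Cdkn1c met both conditions as well but had no promoter entry. Capitals mark GGGGCC or its reverse complement GGCCCC, the core of the sequence known to be bound by the protein of Plagl1, searched on both strands. Of 32851 promoter entries of this length, 21.97% held a match. For Mest the second of 3 entries is shown, and all 3 held 1 match.
Dlk1, chr12:109452573-109452822, plus strand: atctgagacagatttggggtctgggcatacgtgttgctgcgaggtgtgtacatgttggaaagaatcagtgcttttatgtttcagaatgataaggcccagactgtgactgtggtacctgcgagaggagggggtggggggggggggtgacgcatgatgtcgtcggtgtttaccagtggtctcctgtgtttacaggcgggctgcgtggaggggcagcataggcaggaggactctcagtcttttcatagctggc
Plagl1, chr10:13090582-13090831, plus strand: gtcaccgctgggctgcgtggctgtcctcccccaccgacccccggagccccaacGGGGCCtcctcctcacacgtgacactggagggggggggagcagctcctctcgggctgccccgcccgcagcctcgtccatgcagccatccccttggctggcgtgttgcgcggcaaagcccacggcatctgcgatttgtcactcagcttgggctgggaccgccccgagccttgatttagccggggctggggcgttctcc
Mest, chr6:30737800-30738049, plus strand: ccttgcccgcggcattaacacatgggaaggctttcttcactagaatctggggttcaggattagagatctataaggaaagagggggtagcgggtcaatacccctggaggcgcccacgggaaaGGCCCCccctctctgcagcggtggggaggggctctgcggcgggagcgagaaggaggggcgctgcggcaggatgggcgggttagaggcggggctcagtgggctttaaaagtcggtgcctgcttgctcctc
Ndn, chr7:62348027-62348276, plus strand: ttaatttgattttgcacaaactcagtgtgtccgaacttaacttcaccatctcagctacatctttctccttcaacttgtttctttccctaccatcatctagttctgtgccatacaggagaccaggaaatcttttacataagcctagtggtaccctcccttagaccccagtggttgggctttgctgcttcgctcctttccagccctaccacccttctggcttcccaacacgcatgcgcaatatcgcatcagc
The windows differ in base composition. Plagl1 has 19 CpG pairs and 70.4% G or C in this window, Mest 14 and 62.4%, Dlk1 8 and 54.8%, and Ndn 5 and 47.2%. Plagl1 and Mest held 1 match each, and these letters are not in the windows of Dlk1 and Ndn. Among the other members with an entry, Peg3 held 2 matches that overlap in the same stretch (GGGGCCCC) and 1 of 2 Grb10 entries held 1, while Nnat and both Meg3 entries held none. A match is a description of the letters and not a site that these data tested.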

How the data were processed

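The deposited 10x table holds UMI counts per gene and cell that the authors made with Cell Ranger 3.0.1 on GRCm38, and the deposited Smart-seq2 table holds expected counts that the authors estimated with kallisto 0.44.0 and tximport. The deposited bulk table holds read counts, and the software behind it is not given in the sources used here. Of its 18 columns, 16 had lost the sign of Thy1 in their names, so they were not used, and the tests planned on culture media and sorting gates were not run. The 2 Cd36+ columns are given as values. Nothing was normalized before deposit.

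Here, cells with over 8% mitochondrial counts were removed. Expected counts were summed per class and pool and rounded to whole numbers. Cells were clustered with Seurat 5.3.0 at resolution 0.8 on variable genes without imprinted genes, after joining the platforms. A cluster took the class with its highest mean marker score, with no minimum score, a rule set after the scores were seen. Scrublet (scanpy 1.11.5) marked 10, 7 and 5 cells of the 3 10x libraries, which were kept, and no doublet call was made on Smart-seq2 cells. Sums of at least 20 cells entered edgeR 4.0.16 (filterByExpr, TMM, glmQLFit, glmQLFTest, R 4.3.3) on the 15146 genes in both tables, with an adjusted p threshold of 0.05 and the pool, or for days the platform, as a block. H19 and Meg3 were tested on the 10x genes. The interaction tests and all alternatives on the 10x fits were added after the data were seen. Alternatives were DESeq2 1.42.0, no filter on low counts, library-size scaling, other resolutions, imprinted genes kept in the clustering, all deposited cells, doublets removed, single platforms, plates as pools, and each pool left out. The fits were tested on simulated data.

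The members and gene lists were chosen with earlier results of these data known. All 10 members were named in each tested comparison whatever their values, and from the list of 50 further imprinted genes the 2 largest increases and decreases past the threshold were named. For BA-like and PE-like cells, which were not tested, only some of the members were given. The other lists (proliferation, growth arrest, H19 partners and cell type markers) are given as counts, medians or sums. Exact Poisson 95% intervals and the limit of 3 counts set for a count of 0 cover counting error only. Gene positions are from the GRCm38 annotation, and sequences from RefSeq tables of GRCm38.p6, in which 8 of the 10 members had a promoter entry.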

Additional observations from a re-analysis of the deposited data

Results flagged for a closer look

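Of 32 sets of log2 ratios between classes (8 members in 4 comparisons, 4 to 6 pools each), 2 held a pool that lay far from the others by Dixon's criterion, which chance gives in about 1 of 20 sets. Both are Dlk1 in the 10x pools of E12.5. In LM-like against EM-like cells that pool gave a log2 ratio of 0.98, while the other 4 lay between -1.60 and -0.95. The Smart-seq2 sum of the same day, with 14 LM-like cells and so outside the fit, had Dlk1 at 5.52 CPM against 41.6 CPM in EM-like cells, the other direction. In MP-like against EM-like cells it gave 2.95, while the other 5 lay between 1.87 and 2.22. Both ratios share the EM-like sum of that library, in which Dlk1 stood at 241.1 CPM, its lowest EM-like value on 10x.

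Class differences also differed between days by the class-by-day interaction of edgeR. For LM-like against EM-like cells the E16.5 difference minus the E12.5 difference was -1.98 (SE 0.47, adjusted p = 0.0132) for Dlk1. For MP-like against EM-like cells it was 3.69 (SE 0.32, adjusted p = 1.79e-27) for Plagl1, 1.74 (SE 0.29, adjusted p = 7.99e-08) for Mest and 1.14 (SE 0.37, adjusted p = 0.0206) for Ndn. For DF-like against MP-like cells the E16.5 difference minus the E14.5 difference was -1.34 (SE 0.13, adjusted p = 1.89e-22) for Mest, -0.99 (SE 0.11, adjusted p = 4.41e-15) for Dlk1, -0.63 (SE 0.15, adjusted p = 0.00182) for Peg3, -0.86 (SE 0.21, adjusted p = 0.00309) for Ndn and -1.26 (SE 0.32, adjusted p = 0.00501) for Nnat. The log2 ratio of Nnat in the 10x pool of E14.5 was 1.14, while the other 3 pools lay between -1.11 and -0.54. These 9 interactions were tested after the data were seen, the days differ in their clusters and libraries, and the day and the library cannot be told apart. Their SEs are borrowed largely across genes and do not show how far the platforms differed on a single gene.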

How the results depend on the processing

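The tests between classes keep the pool as a block throughout. No paired analysis was possible for the bulk libraries because the bulk columns that carry replicate numbers could not be tied to their samples, and all alternatives planned for the bulk tests were not run. Over the 480 values of the 8 members under other settings, 24 lost the call, 12 gained one and 5 turned in sign, and with 1 pool left out 21 lost the call, 5 gained one and 8 turned. The number of genes called moved by over 1.5 times as follows, given as percent of the genes tested, which differ in number between fits, and the smaller number of pools in a single-platform fit is by construction. LM-like against EM-like cells (23.9% in the report) gave 18.98% with plates as pools, 20.5% on 10x alone, 4.602% on Smart-seq2 alone, and 14.4% to 22.4% with 1 pool left out, the number moving that far only without Smart-seq2 E16.5 (20.8%). DF-like against MP-like cells (11.2%) gave 6.23% on 10x alone and 0% on Smart-seq2 alone by edgeR (2392 genes at an unadjusted p under 0.05), with 0 members called, and 6.21% to 17.1% with 1 pool left out. MP-like against EM-like cells (25.4%) gave 32.4% on 10x alone and 0.00571% (1 gene) on Smart-seq2 alone, with 8 and 0 members called, and 13.3% to 40.1%. N-like against EM-like cells (29.6%) gave 19.4% and 6.53% on single platforms and 11.1% to 27.5%. The change over time in EM-like cells (10.1%) gave 5.73% by DESeq2 and 0.442% to 12.1%, with 0.442% and 0.814% without the Smart-seq2 pools of E16.5 and E12.5, and that in MP-like cells (13.8%) gave 1.74% to 19.8%, lowest without Smart-seq2 E12.5, with 3 to 6 members called. With 1 pool left out, members called ranged from 4 to 6, 6 to 7, 4 to 6 and 4 to 7 in the LM, DF, MP and N comparisons and from 2 to 3 in EM-like cells over time. The interactions gave, for LM-like cells (0.457%), 0.102% without a filter, 0.762% by library size, 0.144% by DESeq2, 0.197% with all cells and 0.0558% to 0.569% with 1 pool left out, for DF-like cells (4.66%) 0.857% by DESeq2 and 0.251% to 8.64%, for MP-like cells (11.8%) 5.47% by DESeq2 and 0.778% to 14.51%, and for N-like cells (0% by edgeR, 957 genes at an unadjusted p under 0.05) 0.0589% by library size, 1.104% by DESeq2 and 0% to 5.97%. The cause of these moves was not tested. Members that turned in sign passed the threshold under neither setting. On 10x alone Ndn in LM-like cells was at 0.098 and Nnat in DF-like cells at 0.74, and on Smart-seq2 alone Plagl1 in MP-like cells at -0.20. By library size, Plagl1 over time in EM-like cells was at -0.027, Peg3 over time in MP-like cells at -0.092 and the MP-like interaction of Grb10 at -0.17. The LM-like interaction of Mest was at -0.018 by DESeq2, and that of Grb10 at 0.0054 at resolution 1.2 and 0.051 with all cells. With 1 pool left out, values ran from -0.75 to 0.13 for Nnat in DF-like cells, -0.15 to 0.71 for Plagl1 in MP-like cells, -0.45 to 0.12 for H19 in LM-like cells, and over time in EM-like cells from -0.29 to 0.14 for Mest and -0.61 to 0.092 for Grb10. Interactions ran from -0.80 to 0.25 for Grb10 in LM-like cells, -0.39 to 0.36 for Grb10 in MP-like cells, and in N-like cells from -2.36 to 0.53 for Mest, -0.65 to 0.92 for Peg3 and -2.00 to 0.66 for Plagl1. H19 in MP-like against EM-like 10x cells passed the threshold under 6 of 8 other settings and without 10x E12.5 (0.97). Day tests rest on 2 residual degrees of freedom, and 10x depth limits members of few counts, such as Nnat in LM-like cells at E16.5.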
